A study of Mus musculus with 20 samples.

Results

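The genes described are 10 members of the NF-kB system, namely the 5 subunits *Nfkb1*, *Nfkb2*, *Rel*, *Rela* and *Relb*, the inhibitors *Nfkbia* and *Nfkbie*, the regulator *Bcl3*, and the feedback genes *Tnfaip3* and *Traf1*. They were chosen by symbol from the 25869 genes of an RNA-seq table of 20 mouse libraries, and all 10 were found in it. The study built a CRISPR activation mouse and used it to make lymphomas with raised MYC and BCL-2. RNA was sequenced from 10 mouse embryonic fibroblast (MEF) libraries, 6 lymphoma cell lines, 2 primary tumours and 2 precursor B cell acute lymphoblastic leukaemia (preB-ALL) libraries. The study's methods for RNA sequencing name no drug treatment. Levels are given as CPM, the reads of a gene scaled to 1000000 reads in its library.

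NF-kB proteins are transcription factors that act as dimers and are held in the cytoplasm by inhibitors of the IkB family. In the canonical pathway, signals such as TNF, IL-1 or the B cell receptor activate the IKK complex, the inhibitor is degraded, and dimers such as p50 with p65 enter the nucleus. In the non-canonical pathway, receptors such as the BAFF, CD40 and lymphotoxin beta receptors trigger the processing of p100 to p52, which pairs with RELB. Several genes of the system, among them *Nfkbia*, *Tnfaip3*, *Nfkb2* and *Relb*, are themselves textbook NF-kB targets and act as brakes or amplifiers. In the B lineage, NF-kB supports survival, and REL is known as a subunit of lymphoid cells.

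The MEFs were WT (2 libraries), dCas9a-SAM KI/+ without an sgRNA (2), dCas9a-SAM KI/+ with non-targeting sgRNAs (sgNT, 2) or dCas9a-SAM KI/+ with *Bcl-2* sgRNAs (sg*Bcl-2*, 4). The *Bcl-2* sgRNA vectors were bought with a puromycin resistance gene, and whether the sequenced MEFs were selected with puromycin is not stated in the methods. The labels number 2 MEF lines in each MEF group, and each sg*Bcl-2* line gave 2 libraries. Whether these 2 are repeats or carry different *Bcl-2* sgRNAs is not given in the labels. For the lymphoma lines, foetal liver progenitors of Eµ-Myc/dCas9a-SAM KI/+ embryos received *Bcl-2* sgRNAs and were put into irradiated mice, and each line was grown from the tumour of 1 mouse. The 4 IgM-positive lines are named 14_179_IgMp, 15_180_IgMp, 16_202_IgMp and 17_213_IgMp in the labels and the 2 IgM-negative lines 18_214_IgMn and 19_216_IgMn, and they are called lines 14 to 19 here. The 2 primary tumours, numbered 20 and 21, were IgM-positive, of the same genotype and from the mice of lines 14 and 15, but title and description give their mouse numbers in opposite order. The preB-ALL libraries came from leukaemias with BCR-ABL1 (p190 T/+), grown with IL7 and without the CRISPR activation cassette, and their names, P190CreERLSLErg and P190RagCreErg, point to further alleles that the labels do not explain. Per the study's methods, the MEF lines came from E14 embryos and the progenitors from E14.5 embryos, and the mice were on a C57BL/6 background. The ages of the tumour-bearing mice at collection and of the source of the leukaemias are not stated here. All groups but the WT MEFs and the preB-ALL carry the cassette at *Rosa26* under the ubiquitous CAG promoter, and its product includes the activation domains of p65 (encoded by *Rela*) and HSF1. Whether reads from the cassette were counted on *Rela* was not tested.

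Promoters of 5 members are shown to stand for the roles described, the subunit genes *Nfkb2* and *Rel*, the inhibitor *Nfkbia*, the regulator *Bcl3* and the feedback gene *Tnfaip3*, with their matches to an outline of the NF-kB binding site, GGG, any 5 bases and CC. RefSeq promoters (GRCm38.p6) were found for 8 of the 10 genes, as 11 start sites, and the 250 bases before the start were searched on both strands. Of these genes, 7 held a match, against 48.7% of all 27025 genes, so that a match is common. A narrower pattern, GGGA, any 2 bases and TTCC, each match of which is also a match to the wider one, was found in 2 of the 8 genes, *Nfkb2* and *Nfkbia*, against 1.36% of all genes. For *Nfkb2* it was found at the other 2 of its 3 start sites, and the *Nfkb2* window shown does not hold it. The *Traf1* window held no match. In the sequences, written 5′ to 3′ and ending at the base before the start, capitals mark every match on either strand, including those that overlap.
Nfkb2, chr19:46304487-46304736, plus strand: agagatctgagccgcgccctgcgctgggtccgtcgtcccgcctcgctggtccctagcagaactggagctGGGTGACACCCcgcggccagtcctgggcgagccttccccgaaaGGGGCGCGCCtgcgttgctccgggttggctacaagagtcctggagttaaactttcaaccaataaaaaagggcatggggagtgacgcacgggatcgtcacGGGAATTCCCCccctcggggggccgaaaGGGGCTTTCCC
Rel, chr11:23770970-23771219, minus strand: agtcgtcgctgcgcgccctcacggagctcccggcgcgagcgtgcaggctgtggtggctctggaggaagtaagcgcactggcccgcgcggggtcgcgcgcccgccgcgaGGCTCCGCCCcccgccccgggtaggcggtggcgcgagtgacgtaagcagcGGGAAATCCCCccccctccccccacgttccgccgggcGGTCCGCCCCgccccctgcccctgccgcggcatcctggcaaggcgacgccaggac
Nfkbia, chr12:55492648-55492897, minus strand: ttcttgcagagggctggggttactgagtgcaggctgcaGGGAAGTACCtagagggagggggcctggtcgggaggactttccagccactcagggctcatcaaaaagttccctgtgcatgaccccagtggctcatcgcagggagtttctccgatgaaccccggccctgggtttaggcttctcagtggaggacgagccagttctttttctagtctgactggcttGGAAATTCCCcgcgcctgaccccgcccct
Bcl3, chr7:19822756-19823005, minus strand: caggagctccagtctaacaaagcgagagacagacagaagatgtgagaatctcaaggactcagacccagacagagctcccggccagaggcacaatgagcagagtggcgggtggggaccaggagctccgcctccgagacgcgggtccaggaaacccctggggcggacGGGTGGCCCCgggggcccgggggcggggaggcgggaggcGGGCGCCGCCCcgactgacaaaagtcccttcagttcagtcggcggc
Tnfaip3, chr10:19015411-19015660, minus strand: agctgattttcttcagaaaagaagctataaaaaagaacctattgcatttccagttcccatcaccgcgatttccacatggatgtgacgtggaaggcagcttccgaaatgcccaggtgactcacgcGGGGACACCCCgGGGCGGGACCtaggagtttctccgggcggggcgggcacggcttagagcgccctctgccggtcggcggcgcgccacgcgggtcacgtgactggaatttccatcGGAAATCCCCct
The *Nfkb2* window belongs to the most upstream of the 3 start sites found for it, and GGGAATTCCC lies at bases -39 to -30. This start site lies inside the gene's coordinates given below, so it is not the first base of the gene. The *Nfkbia* match at bases -29 to -20, GGAAATTCCC, also fitted the narrower pattern on the opposite strand. These matches are letters in a window, and no binding was measured.

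The libraries held between 12474885 and 26678417 reads, and the preB-ALL libraries were the shallowest, with 14970269 and 12474885. The targeted gene *Bcl2* stood at 46.8 to 71.8 CPM in the sg*Bcl-2* MEFs against 13.4 and 13.7 CPM with sgNT. The 10 B lineage markers summed to between 1319 and 8330 CPM in the lymphoma and leukaemia libraries and to at most 28.0 CPM in any MEF library. WT MEF library 2 stood apart, because its 12 myeloid markers summed to 326 CPM, against 8.99 to 14.3 CPM in the cassette MEFs, and its 12 fibroblast markers to 8538 CPM, against 18479 to 25342 CPM. The 12 fibroblast markers also summed to 6600 and 2821 CPM in the 2 preB-ALL libraries, against 3.12 to 38.9 CPM in the lymphoma lines. Culture medium and extraction kit of the preB-ALL differed from those of the lymphoma lines, and these differences and the disease cannot be told apart. In bulk RNA, fewer cells of a type and less RNA per cell cannot be told apart either. Per the study's supplement, the WT and sgNT MEFs were 2 independent lines each. For the other groups, separate cultures are known only from the line and mouse numbers, so p-values measure the spread between these libraries.

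The genes of the p50 and p65 subunits were well expressed in all groups. *Nfkb1* (Entrez 18033, chr3:135584655-135691969, GRCm38.p6) encodes p105, the precursor of p50. It measured 45.7 and 69.2 CPM in WT MEFs, 66.6 and 74.9 without an sgRNA, 77.7 and 78.3 with sgNT, and 104, 107, 110 and 135 with sg*Bcl-2*. The lymphoma lines lay between 92.9 and 125 CPM with a median of 106, the tumours at 97.7 and 131, and the preB-ALL at 148 and 180. The preB-ALL libraries were thus the highest of all 20, and the sg*Bcl-2* MEFs, lines and tumours overlapped.

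*Rela* (Entrez 19697, chr19:5637442-5648134) encodes p65, the main activating subunit. It measured 110 and 177 CPM in WT MEFs and 102 to 138.01 CPM in the 8 cassette MEF libraries, with a median of 107. The lines held 61.9 to 87.1 CPM (median 65.6), the tumours 67.4 and 74.3, and the preB-ALL 91.8 and 97.5 CPM. Every MEF library was above every B lineage library, and the cassette MEFs lay at or below the WT MEFs but for sg*Bcl-2* library 2.2, at 138.01 CPM. *Hsf1*, the source of the other domain in the cassette, read 54.9 and 66.8 CPM in WT MEFs and 47.0 to 56.6 CPM in the cassette MEFs.

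*Rel* (Entrez 19696, chr11:23736847-23770969), the gene of the lymphoid subunit c-REL, had the opposite order. It measured 2.07 and 2.09 CPM in WT MEFs, 2.92 and 3.28 without an sgRNA, 3.07 and 4.06 with sgNT, and 3.88 to 4.89 CPM with sg*Bcl-2*. The 4 IgM-positive lines held 14.7 to 17.8 CPM, the IgM-negative lines 11.8 and 12.5, the tumours 11.5 and 16.4, and the preB-ALL 15.8 and 17.6 CPM. The 10 B lineage libraries (11.5 to 17.8 CPM) and the 10 MEF libraries (2.07 to 4.89 CPM) did not overlap.

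*Nfkb2* (Entrez 18034, chr19:46300994-46312400), which encodes p100, the precursor of p52, measured 40.0 to 79.5 CPM in the 10 MEF libraries. The lymphoma lines held 10.4, 21.0, 13.0, 11.0, 9.88 and 6.68 CPM (14 to 19 in order), the tumours 20.1 and 18.8, and the preB-ALL 27.8 and 36.5 CPM. Its partner *Relb* (Entrez 19698, chr7:19606217-19629438) held 13.9 to 45.2 CPM in MEFs. In the lines it held 6.85, 7.68, 2.12, 2.34, 1.76 and 0.948 CPM in the same order, while the tumours held 18.7 and 14.2 CPM and the preB-ALL 13.0 and 19.1 CPM. Both genes of the non-canonical pathway had their lowest mean in the cultured lines, although line 15 exceeded the tumours in *Nfkb2*, and *Relb* in the tumours lay in the range of the MEFs and preB-ALL.

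**Figure D1:**
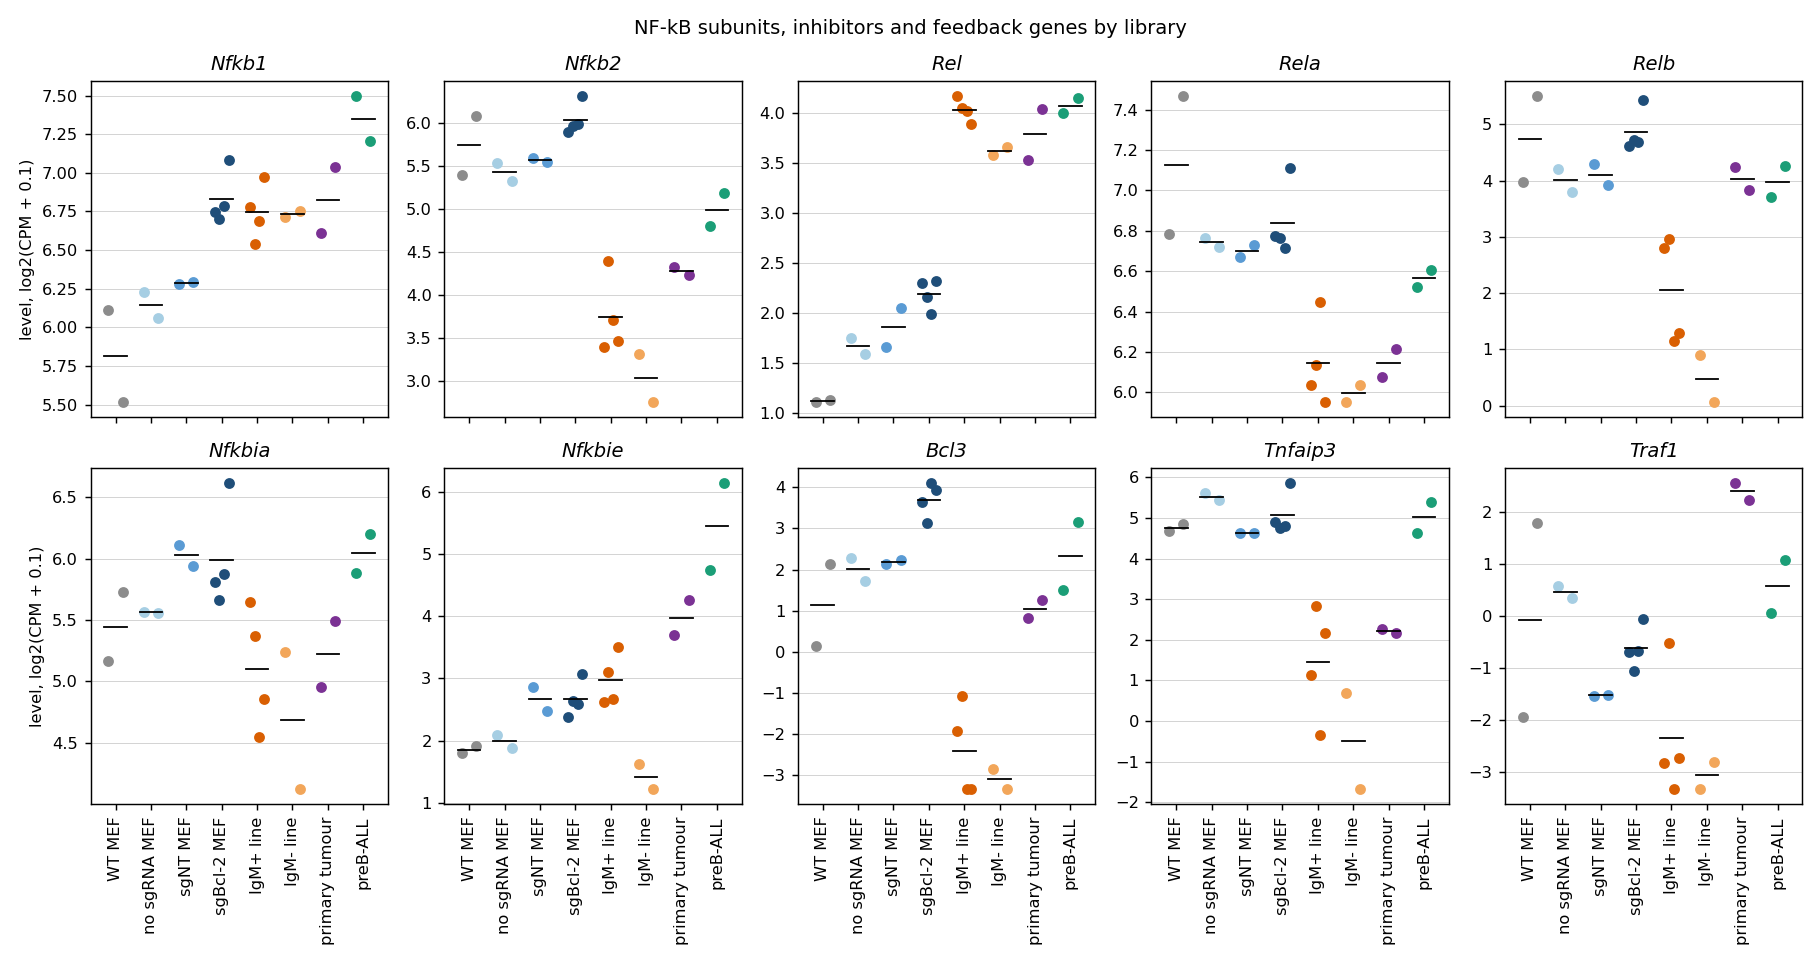
Level of each of the 10 genes in every library, as log2(CPM + 0.1), by group. Points are libraries and black bars are group means on this scale. *Rel* separates the B lineage from MEFs upwards, whereas *Nfkb2*, *Bcl3* and *Tnfaip3* are lowest in the lymphoma lines, where *Bcl3* reaches 0 reads in 3 lines.

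*Nfkbia* (Entrez 18035, chr12:55489409-55492647) encodes IkBα, the fast feedback inhibitor of the canonical pathway. It measured 35.8 and 53.0 CPM in WT MEFs, 47.1 and 47.3 without an sgRNA, 61.2 and 69.2 with sgNT, and 50.6, 55.9, 58.5 and 97.9 CPM with sg*Bcl-2*. The lines held 17.4 to 50.1 CPM (median 33.3), the tumours 30.9 and 45.0, and the preB-ALL 58.9 and 73.6 CPM. *Nfkbie* (Entrez 18037, chr17:45555700-45563169), which encodes IkBε, was highest in the preB-ALL, at 26.8 and 70.5 CPM, and in the tumours, at 12.8 and 19.1 CPM. The IgM-positive lines held 6.08 to 11.2 CPM, the IgM-negative lines 2.97 and 2.24 CPM, and the 10 MEF libraries 3.39 to 8.27 CPM.

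*Bcl3* (Entrez 12051, chr7:19808462-19822824) encodes a nuclear IkB-like protein that binds p50 and p52 dimers on DNA. The lymphoma lines held 15 reads between them. These were 4, 10 and 1 reads in lines 14, 15 and 18 (0.162, 0.375 and 0.0391 CPM) and 0 reads in lines 16, 17 and 19. A count of 0 allows up to 0.114, 0.149 and 0.129 CPM in those libraries, taken as 3 reads and for counting error only. The tumours held 1.66 and 2.29 CPM, the preB-ALL 2.74 and 8.82, the sg*Bcl-2* MEFs 8.62 to 17.0, and the other 6 MEF libraries 1.01 to 4.78 CPM. No line reached the level of any tumour, preB-ALL or MEF library.

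*Tnfaip3* (Entrez 21929, chr10:19000910-19015410) encodes A20, the ubiquitin-editing enzyme that shuts off IKK signalling. It measured 24.7 to 57.9 CPM in the 10 MEF libraries and 24.7 and 42.2 CPM in the preB-ALL. The lines held 2.11, 7.08, 0.682, 4.38, 1.52 and 0.216 CPM (14 to 19 in order) and the tumours 4.69 and 4.39 CPM. The range among the lines thus ran from 5 reads in line 19 to 189 reads in line 15. *Traf1* (Entrez 22029, chr2:34941750-34961812), an adaptor induced by NF-kB, was highest in the tumours, at 5.74 and 4.59 CPM. The lines held 19 reads in all, 16 of them in line 15 (0.600 CPM), with 0 reads in lines 16 and 18, where a count of 0 allows up to 0.114 and 0.117 CPM. The preB-ALL held 0.935 and 2.00 CPM, and the cassette MEFs 0.244 to 1.38 CPM.

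To compare genes with each other, CPM was divided by the length of each gene's exons in kilobases. On this scale *Nfkb1* made up 45.2% ± 5.33 (SD, n = 6) and *Rela* 43.7% ± 4.03 of the summed subunit level in the lymphoma lines. *Nfkb2* made up 4.88% ± 1.85, *Rel* 3.44% ± 0.401 and *Relb* 2.80% ± 2.19. In the sg*Bcl-2* MEFs, the shares were 27.8% ± 0.978 (SD, n = 4) for *Nfkb1*, 42.5% ± 1.10 for *Rela*, 15.7% ± 0.453 for *Nfkb2*, 13.3% ± 1.79 for *Relb* and 0.608% ± 0.0764 for *Rel*. The lines thus held mostly transcripts of the p50 and p65 genes, while the MEFs also held a sizeable share of *Nfkb2* and *Relb*. The tumours held 13.4% and 8.86% *Relb*, and the preB-ALL 6.37% and 9.45%, above all 6 lines, of which the highest had 5.89%.

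**Figure D2:**
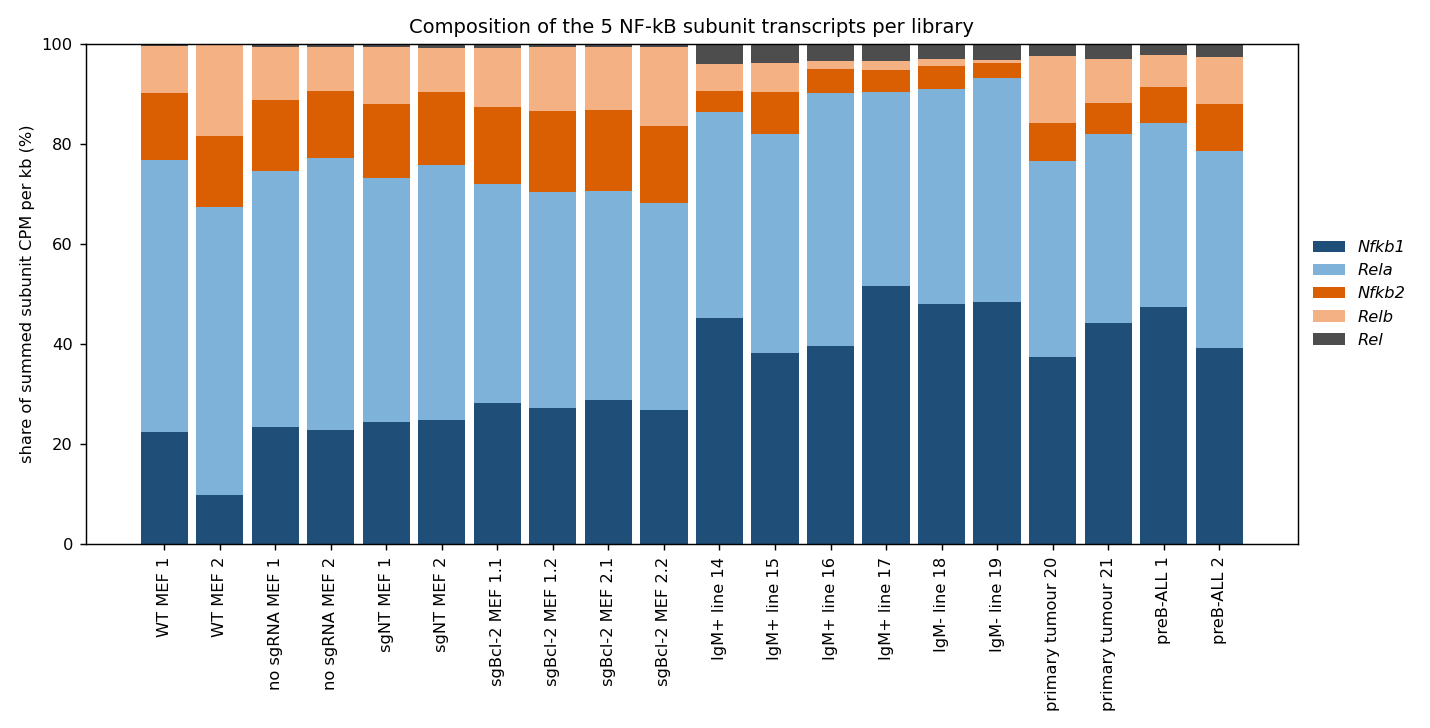
Share of each of the 5 subunit genes in their summed CPM per kilobase of exon, in percent, for every library (bars). *Rela* and *Nfkb1* fill most of each bar, the *Nfkb2* and *Relb* shares are wide in MEFs and narrow in the lymphoma lines, and the *Rel* share is visible only in B lineage libraries.

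Subunit ratios carried these differences independent of the scaling of a library. The log2 ratio of *Rel* to *Rela* per length was -3.66 ± 0.22 (SD) in the 6 lines and -6.11 ± 0.14 in the 4 sg*Bcl-2* MEFs, a difference of 2.45. The ratio of *Nfkb2* to *Nfkb1* was -3.26 ± 0.62 against -0.82 ± 0.05, and that of *Relb* to *Rela* -4.27 ± 1.13 against -1.68 ± 0.21. No library of either group overlapped with the other group in any of these ratios. In each case the two-sided exact permutation test gave p = 0.00952, the smallest that 6 against 4 libraries allow, and 0.0476 after Benjamini-Hochberg adjustment over the 15 ratio tests. The 4 sg*Bcl-2* libraries came from 2 MEF lines, however, and with the ratios averaged per MEF line, an alternative chosen after seeing the data, the differences were the same and the exact p was 0.0714, the smallest that 6 against 2 allow, so that the adjusted p rests on counting libraries of a MEF line separately. The *Relb* to *Rela* ratio of the tumours, -1.54 and -2.09, lay above all 6 lines by 2.46 on average, but 2 against 6 libraries cannot go below an exact p of 0.0714. Against preB-ALL, the lines were lower in the *Relb* to *Rela* ratio by 1.99, again with the smallest exact p possible of 0.0714 and without overlap.

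**Figure D3:**
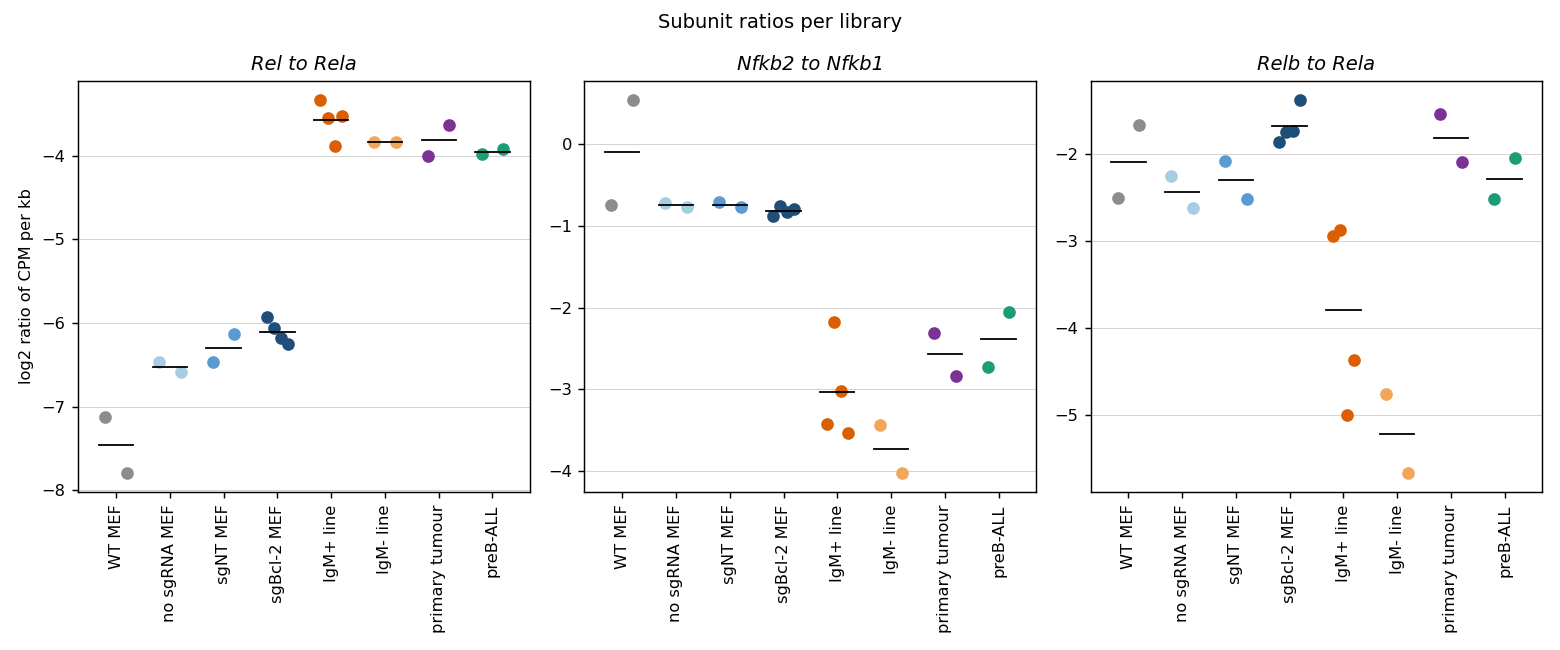
Log2 ratios of CPM per kilobase for *Rel* to *Rela*, *Nfkb2* to *Nfkb1* and *Relb* to *Rela* in every library (points), with group means (bars). The lines lie above the MEFs for *Rel* to *Rela* and below them for the other ratios, and the tumours lie above the lines for *Relb* to *Rela*.

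The lymphoma lines were compared with preB-ALL because both are malignancies of the B lineage with different drivers. Of the 10 genes, 5 were lower in the lines, *Nfkb2*, *Nfkbie*, *Bcl3*, *Tnfaip3* and *Traf1*, and none was higher. Over all genes tested by limma at an adjusted p of 0.05, 43.4% were called, 20.9% as higher and 22.5% as lower. *Bcl3* had a log2 difference of -4.68 (SE 0.72, limma adjusted p = 0.00119) and *Tnfaip3* of -3.86 (SE 1.08, limma adjusted p = 0.0198). *Nfkbie* differed by -2.63 (SE 0.63, limma adjusted p = 0.0101) and *Nfkb2* by -1.13 (SE 0.36, limma adjusted p = 0.0354). *Traf1* differed by -2.88 (SE 0.73, limma adjusted p = 0.0129), but this was not called by edgeR (adjusted p = 0.0845) or DESeq2 (adjusted p = 0.157). As the lines held few *Bcl3* and *Traf1* reads, the size of these differences depends on the pseudocount of 0.1 CPM. With a pseudocount of 1 they were -2.25 and -0.97, and with limma-voom -5.97 and -4.07.

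The remaining 5 genes did not pass. *Relb* had a log2 difference of -2.10 (SE 0.76, limma adjusted p = 0.0524), *Nfkbia* of -0.72 (adjusted p = 0.148), *Nfkb1* of -0.25 (adjusted p = 0.236) and *Rela* of -0.11 (adjusted p = 0.588). *Relb* was called in 8 of 17 alternatives, among them DESeq2 (adjusted p = 0.0427), limma-voom (0.0224), RLE scaling (0.0452) and pseudocounts of 0.5 (0.0433) and 1 (0.0367). *Rel* differed by 0.18 (adjusted p = 0.520), and by -0.18 without a scaling factor. In CPM, 9 of the 10 genes were lower in every line than in both preB-ALL libraries, all but *Rel*, which was so for 38.3% of all genes, while 15.0% stood above. The scaling weighs here, as leaving it out moved the median of all genes from -0.07 to -0.42 and gave 9 lower calls, adding *Nfkb1*, *Rela*, *Relb* and *Nfkbia*, with 43.6% of all genes called. Without preB-ALL library 2 only *Bcl3* was called, without library 1 only *Nfkbie*, *Bcl3* and *Traf1*, and with the tumours in place of the lines of their mice only *Tnfaip3*, in fits that called 22.2%, 35.3% and 26.0% of all genes. The *Nfkb2* call was also lost without line 14 (0.0572), 17 (0.0571) or 18 (0.0579). In the fits with 1 preB-ALL library, the spread came from the lines alone. Without preB-ALL library 2, the log2 differences of the lost calls were -3.57 for *Tnfaip3*, -1.03 for *Nfkb2*, -2.03 for *Nfkbie* and -2.44 for *Traf1*. Without library 1 they were -4.23 for *Tnfaip3* and -1.31 for *Nfkb2*. The fibroblast markers summed to 6600 and 2821 CPM in the preB-ALL and to at most 38.9 CPM in the lines, and the 10 dissociation and stress genes summed to 1009 and 1300 CPM against 98.5 to 188 CPM. Their part in the result was not tested.

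Of 71 tested genes on the pathway lists, 5 were higher, 29 lower and 37 not called in the lines. Their median log2 difference was -0.61, against -0.07 over all genes tested, and the 47.9% called was close to the 43.4% of all genes. Among receptors, 6 of 13 were lower and none higher, led by *Ltbr*, the lymphotoxin beta receptor (0.0756 against 28.0 CPM, limma adjusted p = 2.65e-06), and *Il1r1*, the IL-1 receptor (0.0273 against 25.6 CPM, limma adjusted p = 4.12e-06). Among ligands, 4 of 5 were lower, with *Lta* at 0.0375 to 0.265 CPM in the lines against 5.08 and 37.8 CPM, and *Tnf* at 0.0391 to 0.152 CPM against 2.94 and 24.1 CPM. Most of the preB-ALL mean thus came from library 2 for both genes. Of 15 target genes outside the 10, 11 were lower, including *Vcam1*, *Cxcl1* and *Il6*, and 1 higher, *Sod2*, the mitochondrial superoxide dismutase (154 against 91.0 CPM). *Vcam1*, *Cxcl1*, *Il6*, *Ltbr* and *Il1r1* are genes that fibroblasts also express. The IKK and adaptor list was more even, with 2 higher and 3 lower of 24, and *Traf3*, the adaptor that restrains the non-canonical pathway, was higher at 157 against 64.7 CPM (log2 difference 1.58, limma adjusted p = 0.0117).

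The lines were next set against the sg*Bcl-2* MEFs, which share the cassette and the target but are of another cell type. All genes differed widely here, with 81.3% called by limma, 36.3% as higher and 45.0% as lower, so that the 9 of 10 members called is close to the background. *Rel* was the member called higher in the lines, with a log2 difference of 1.52 (SE 0.15, limma adjusted p = 4.62e-06). The log2 difference of *Bcl3* was -6.48 (SE 0.45, limma adjusted p = 1.89e-07), that of *Tnfaip3* -4.44 (SE 0.77, limma adjusted p = 0.000293) and that of *Relb* -3.52 (SE 0.53, limma adjusted p = 0.000107). As *Bcl3* was near 0 in the lines, the size of its difference depends on the fit, from -7.94 with limma-voom to -3.79 with a pseudocount of 1, and it was called in all 19 alternatives. *Nfkb2* differed by -2.71, *Traf1* by -2.09, *Nfkbia* by -1.20 and *Rela* by -0.93, with limma adjusted p between 1.80e-06 and 0.00341. *Nfkb1* differed by -0.27 (limma adjusted p = 0.0447) with overlapping CPM, and this call was lost in 11 of 19 alternatives. *Nfkbie* did not pass (-0.38, limma adjusted p = 0.407). *Traf1* rested on few reads (-0.55 with a pseudocount of 1 and -3.33 with limma-voom), and its CPM overlapped through line 15. In CPM, *Rel* stood above in every line, as 36.4% of all genes did, and 6 members stood below, as 38.9% did.

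Of 70 tested genes of the other lists, 23 were higher and 36 lower in the lines, and the 84.3% called was close to the 81.3% of all genes. The IKK and adaptor genes included 12 higher and 6 lower of 24, with *Malt1*, a protease that acts between the B cell receptor and IKK, higher at 55.0 against 6.44 CPM, and *Bcl10*, its partner in that step, lower at 30.0 against 65.9 CPM. The receptors included *Cd79a* and *Cd79b*, the signalling chains of the B cell receptor (482 against 0.277 CPM and 267 against 0.0700 CPM), while *Ltbr* (0.0756 against 159 CPM) and *Il1r1* (0.0273 against 80.9 CPM) were lower. *Vcam1*, an adhesion molecule, and *Ccl2*, a chemokine, were the lower targets with the smallest p, at 0.0770 against 257 CPM and 0.175 against 809 CPM.

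**Figure D4:**
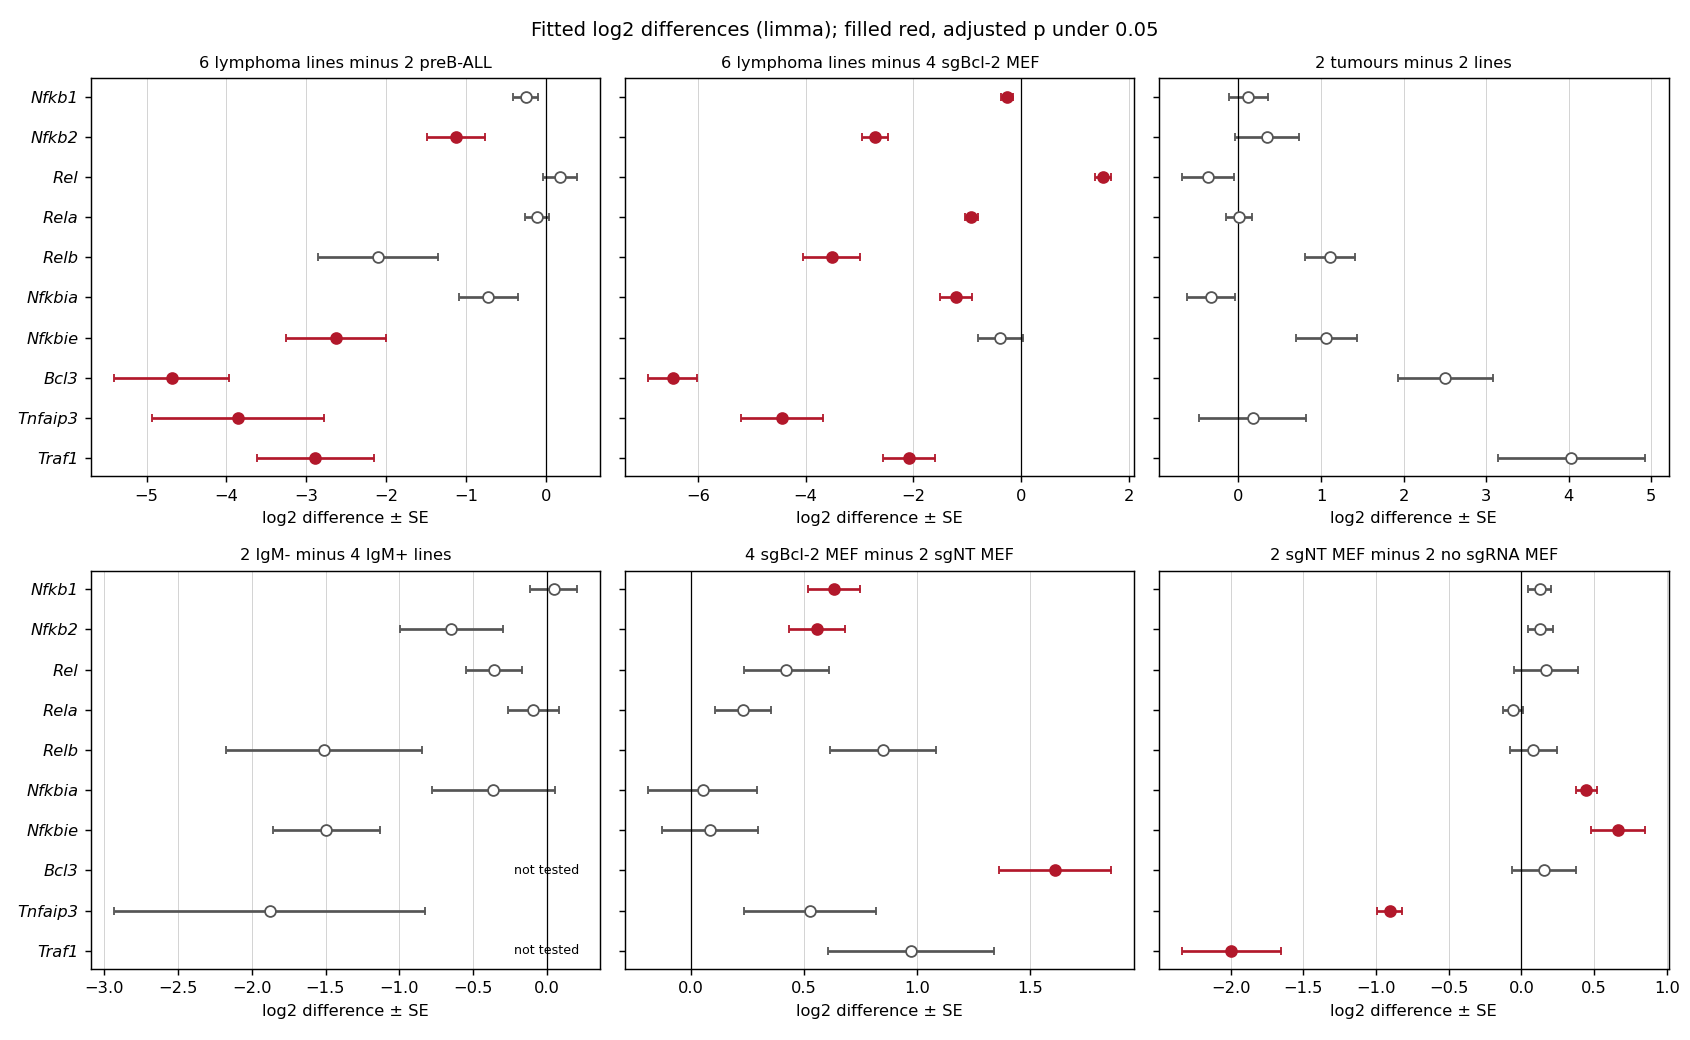
Fitted log2 differences of the 10 genes with their SE in 6 comparisons. Filled red points passed a limma adjusted p of 0.05 over all genes, open points did not. Calls are downwards in lines against preB-ALL, upwards for *Nfkb1*, *Nfkb2* and *Bcl3* in sg*Bcl-2* against sgNT MEFs, and in both directions in sgNT against no sgRNA.

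Among the lines, the IgM-negative pair was compared with the 4 IgM-positive lines into which the labels divide them. Of the 8 members that could be tested by limma, 0 were called, against 0.646% of all genes (0.0484% higher and 0.597% lower), and 1398 of 12386 genes had an unadjusted p under 0.05. *Nfkbie* read 2.97 and 2.24 CPM against 6.08, 6.25, 8.47 and 11.2 CPM, a log2 difference of -1.49 (SE 0.36, limma adjusted p = 0.215), and DESeq2 called it (adjusted p = 0.0114) with 6.1% of all genes, while edgeR called 0 members and 0.194% of all genes. *Relb* (log2 difference -1.51, SE 0.66), *Nfkb2* (-0.65, SE 0.35) and *Rel* (-0.36, SE 0.19) also stood below all IgM-positive lines in CPM. These were 4 of 8 genes, against 14.8% of all genes that stood below in this way and 7.82% that stood above. The 10 B lineage markers summed to 1523 and 1319 CPM in the IgM-negative lines against 2268 to 2480 CPM, and the 6 early B cell markers to 66.8 and 85.2 against 391 to 1044 CPM, so that both marker sums were lower in the IgM-negative lines, and their part in the levels of the 4 genes was not tested. *Bcl3* and *Traf1* had too few reads to be tested. Of the pathway genes, only *Nlrc5*, a regulator of MHC class I genes that also restrains IKK, was called, at 5.33 against 58.0 CPM (limma adjusted p = 0.0328).

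The primary tumours were compared with the lines of the same mice, 14 and 15. None of the 10 genes was called, against 0.33% of all genes (0.267% higher and 0.0629% lower), and edgeR also called 0, and 0.0% of all genes, while DESeq2 called *Relb* and *Traf1*, and 16.5% of all genes. Over all genes, 3296 of 12719 had an unadjusted limma p under 0.05. *Traf1* stood at 5.74 and 4.59 CPM against 0.0406 and 0.600 CPM (log2 difference 4.03, SE 0.90, limma adjusted p = 0.0934). *Bcl3* stood at 1.66 and 2.29 against 0.162 and 0.375 CPM (2.51, SE 0.57, limma adjusted p = 0.0959). As lines 14 and 15 held few reads of both genes, the size of these differences depends on the fit. Across the alternatives it ran from 2.23 to 5.16 for *Traf1* and from 1.21 to 3.45 for *Bcl3*. *Relb* stood at 18.7 and 14.2 against 6.85 and 7.68 CPM (1.11, SE 0.30, limma adjusted p = 0.120), and *Nfkbie* at 12.8 and 19.1 against 6.08 and 8.47 CPM (1.07, SE 0.37, limma adjusted p = 0.171).

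Both tumours were above both lines for these 4 genes, as for 31.1% of all genes, and below them for *Rel*, as for 26.0%. The pairing of tumours with lines cannot be settled, as the labels conflict. With the mouse numbers of the titles as a block, limma called *Relb* (adjusted p = 0.0335), *Bcl3* (0.0348) and *Traf1* (0.0166), in a fit that called 28.3% of all genes, and with those of the descriptions it called none, and *Traf1* had an adjusted p of 0.291. Against all 4 IgM-positive lines, *Bcl3* (limma adjusted p = 0.0425) and *Traf1* (limma adjusted p = 0.0252) were called, along with 10.9% of all genes. Marker sums differed between tumours and lines as well. The 12 myeloid markers summed to 70.4 and 77.1 CPM in the tumours and to 18.8 and 13.3 CPM in lines 14 and 15, and the 10 T and NK cell markers to 187 and 164 CPM against 15.8 and 82.4 CPM. *Lyz2* read 1.84 and 1.75 CPM in the tumours and 0 and 0.0375 CPM in those lines, and *Cd3e* 0.613 and 0.549 against 0.0811 and 0.150 CPM. The 10 B lineage markers summed to 6333 and 6872 CPM in the tumours against 2407 and 2467 CPM in these lines, and the 6 early B cell markers to 46.1 and 4.74 against 391 and 729 CPM. The part of these markers in the levels of the 4 genes was not tested. Of 65 pathway genes tested, limma called 0.

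In MEFs, activation of *Bcl-2* was compared with sgNT to see what the guide changes beside its target. Of the 10 genes, 3 rose, *Nfkb1*, *Nfkb2* and *Bcl3*, and none fell, where limma called 10.8% of all genes, 6.61% as higher and 4.24% as lower. *Bcl3* measured 12.4, 8.62, 17.0 and 15.2 CPM (sg*Bcl-2* libraries 1.1, 1.2, 2.1 and 2.2) against 4.29 and 4.59 CPM with sgNT. It rose by 1.61 on the log2 scale (SE 0.25, limma adjusted p = 0.00843). *Nfkb1* rose by 0.63 (SE 0.12, limma adjusted p = 0.0143) and *Nfkb2*, at 59.7, 62.7, 63.3 and 79.5 against 48.4 and 46.8 CPM, by 0.56 (SE 0.12, limma adjusted p = 0.0263). All 4 libraries with sg*Bcl-2* were above both with sgNT for these 3 genes, and also for *Relb*, *Tnfaip3* and *Traf1*. The 10 dissociation and stress genes had a median of 73.9 to 93.6 CPM in the 4 sg*Bcl-2* libraries against 29.6 and 34.7 CPM with sgNT (sums of 775 to 984 against 580 and 710 CPM), and their part in the result was not tested. The 6 of 10 members compare with 13.0% of all genes that stood above and 30.9% that stood below.

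*Relb* measured 24.4, 26.3, 25.7 and 43.3 CPM against 19.4 and 15.1 CPM, a log2 difference of 0.85 (SE 0.23) that missed the threshold (limma adjusted p = 0.0527). With the MEF line as a block it was just called (adjusted p = 0.0499), as it was by DESeq2 (log2 difference 0.90, adjusted p = 0.00157), without library 2.2 (0.00988) and with the libraries summed per MEF line, with the block (0.0107) or without it (0.0291). The last of these fits was chosen after seeing the data and called 9.37% of all genes, and the other 4 called 11.2% to 17.6%. *Tnfaip3* (0.53, limma adjusted p = 0.271), *Traf1* (0.97, limma adjusted p = 0.121), *Rel* (0.42, limma adjusted p = 0.178) and *Rela* (0.23, limma adjusted p = 0.251) did not pass. With the libraries summed per MEF line and the block, *Tnfaip3* (0.57, limma adjusted p = 0.0232) and *Rela* (0.24, limma adjusted p = 0.0359) were called, in a fit that called 17.6% of all genes. *Nfkbia* (0.05) and *Nfkbie* (0.09) stood near 0, and both turned negative without a scaling factor. Library 2.2 was the highest of the 4 for *Nfkb1*, *Nfkb2*, *Rel*, *Rela*, *Relb*, *Nfkbia*, *Nfkbie*, *Tnfaip3* and *Traf1*. Without it, *Nfkb1*, *Nfkb2* and *Bcl3* were still called, and the *Tnfaip3* difference was 0.25. All 3 calls were lost when either sgNT library was left out, or when all 10 MEF libraries shared an estimate of the spread (adjusted p = 0.264, 0.238 and 0.216). These fits called 1.04%, 1.32% and 0.422% of all genes, and the differences moved little, to between 1.54 and 1.69 for *Bcl3*, 0.60 and 0.67 for *Nfkb1*, and stayed at 0.56 for *Nfkb2*.

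Of 66 tested genes of the other lists, 16 were higher and 0 lower with sg*Bcl-2*, or 24.2% called against 10.8% of all genes. These included the receptors *Tnfrsf1a* (193 against 134 CPM, limma adjusted p = 0.00449) and *Tnfrsf1b* (74.8 against 54.7 CPM, limma adjusted p = 0.0126), both for TNF. The adaptors *Traf6* (37.4 against 24.2 CPM) and *Bcl10* (65.9 against 53.8 CPM) were among them. Of 18 targets outside the 10, 5 were higher, including *Vcam1* (257 against 173 CPM), *Tnfaip2* (230 against 129 CPM) and *Plau*, the urokinase gene (83.7 against 57.6 CPM). The ligand *Tnfsf11*, or RANKL, was at 2.66 against 0.918 CPM (limma adjusted p = 0.0345). Without an sgRNA, *Tnfaip2* read 206, *Plau* 146 and *Tnfsf11* 2.63 CPM, all above their sgNT level. With sg*Bcl-2*, *Plau* stayed below its level without an sgRNA, and *Tnfsf11* was close to it. Of the 18 targets, 8 were lower and 8 higher with sgNT than without an sgRNA.

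Cassette MEFs with sgNT were compared with those without an sgRNA, to measure what transduction with a non-targeting guide changes. Of the 10 genes, 2 rose and 2 fell, where limma called 41.1% of all genes, 20.2% as higher and 20.9% as lower, so that the share of members was near the background. The inhibitor genes *Nfkbia* (61.2 and 69.2 against 47.1 and 47.3 CPM) and *Nfkbie* (5.46 and 7.16 against 3.57 and 4.18 CPM) rose by 0.45 (SE 0.07, limma adjusted p = 0.00251) and 0.67 (SE 0.19, limma adjusted p = 0.0240). The feedback gene *Tnfaip3* fell, with a log2 difference of -0.90 (SE 0.09, limma adjusted p = 0.000227), from 48.7 and 43.5 CPM to 24.9 and 24.7 CPM. *Traf1* fell as well, by -1.99 on this scale (SE 0.34, limma adjusted p = 0.00289), from 1.38 and 1.16 CPM to 0.244 and 0.248 CPM. The size of this *Traf1* difference depends on the fit, from -2.38 to -0.87 across the alternatives. The fibroblast markers had medians of 1267 and 1274 CPM with sgNT against 448 and 387 CPM without an sgRNA, while their sums overlapped (19588 and 21406 against 21472 and 18479 CPM), and the stress genes had medians of 29.6 and 34.7 against 48.3 and 40.9 CPM, and their part was not tested. The groups did not overlap for these 4 members, and with *Nfkb1* and *Nfkb2* this made 4 members above, against 37.9% of all genes, and 2 below, against 35.1%, while the fall of *Traf1* rests on 59 reads without an sgRNA and 11 with sgNT.

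None of the 5 subunits was called, with log2 differences between -0.06 for *Rela* and 0.17 for *Rel*, nor was *Bcl3* (0.16). *Nfkb1* and *Nfkb2* were both higher in each sgNT library, by 0.13 (limma adjusted p = 0.228 and 0.262). The *Nfkbie* call was lost without sgNT library 1 or no-sgRNA library 2 (limma adjusted p = 0.122 and 0.105), with DESeq2 (0.0558) and without the filter on low counts (0.0562), and all 4 calls were lost with all 10 MEF libraries in the fit, where 5.95% of all genes were called. Of 66 tested genes of the other lists, 17 were higher and 13 lower, and the 45.5% called was close to the 41.1% of all genes. Of the 18 targets among them, 8 were higher and 8 lower. The chemokine genes *Ccl2* (603 against 70.7 CPM) and *Cxcl1* (19.9 against 5.75 CPM) and the adhesion gene *Icam1* (34.4 against 8.52 CPM) were higher, with limma adjusted p between 1.52e-05 and 7.37e-05. *Plau* (57.6 against 146 CPM), *Gadd45b* (20.9 against 45.2 CPM) and *Tnfaip2* (129 against 206 CPM) were lower. *Zfp36*, which encodes an mRNA-destabilising protein, was lower as well (23.5 against 43.2 CPM, limma adjusted p = 0.000148), while *Il1r1* and *Tlr2* were higher. This comparison and that of sg*Bcl-2* with sgNT share the sgNT libraries.

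The MEFs with the cassette were also compared with WT MEFs. Those without an sgRNA differ from WT by the cassette. Those with sgNT differ by the cassette and the transduced guide together, which this comparison cannot tell apart. Without an sgRNA, limma called 0 of 10 genes and 0.0% of all genes, with 1080 of 14546 at an unadjusted p under 0.05. For sgNT against WT, it called 0 of 9 genes and 0.0% of all, with 589 of 14560 at an unadjusted p under 0.05. In simulated data, limma called 0.5% (no sgRNA) and 0% (sgNT) of genes changed 4-fold, so that 0 calls do not show an absence of change. DESeq2 called 188 and 88 genes, and edgeR 0 in both, none of them a member. In CPM, 2 of 10 members stood above both WT libraries without an sgRNA, against 20.4% of all genes, and 1 below, against 20.6%, while 4 of 9 stood above with sgNT, against 22.0%, and 2 below, against 16.0%. The WT libraries differed from each other, with *Rela* at 110 and 177, *Relb* at 15.7 and 45.2, *Nfkb1* at 69.2 and 45.7, *Bcl3* at 1.01 and 4.29 and *Traf1* at 0.159 and 3.34 CPM. The myeloid markers summed to 9.07 CPM in WT library 1 and 326 in WT library 2, and the fibroblast markers to 18155 and 8538 CPM. The part of these markers in the levels of the members was not tested. *Tnfaip3* was above both WT libraries without an sgRNA, at 48.7 and 43.5 against 25.3 and 28.9 CPM (log2 difference 0.80, SE 0.18, limma adjusted p = 0.643). Without WT library 2, limma called *Nfkbia*, *Bcl3*, *Tnfaip3* and *Traf1* as higher without an sgRNA, and *Nfkbia* and *Bcl3* as higher with sgNT, each against 1 WT library that is assumed to vary like the other group. Of all genes, 31.8% and 11.2% were called in these fits. Without WT library 1, it called *Nfkb2*, *Rela*, *Relb*, *Tnfaip3*, *Traf1* and *Nfkb1* in the first comparison, of which 4 were lower, and in the second *Nfkb1*, *Nfkb2*, *Rela*, *Relb* and *Nfkbia*, of which 3 were lower, while 55.1% and 53.4% of all genes were called.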

How the data were processed

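The authors aligned the reads with Rsubread to GRCm38 (mm10), counted them per Entrez gene and deposited the values as CPM, without a log or a scaling factor. Whole reads could be recovered from the low values, and 100% of values were whole within 0.01 read. Symbols came from RefSeq (GRCm38.p6, 25242 identifiers) and GENCODE (14), and 613 had none. Exon lengths came from GENCODE M21. Whether counting used the strand is not given in the sources used here, so reads of overlapping genes cannot be told apart.

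For each of 8 comparisons, only its libraries were fitted with limma 3.58.1 (trend) in R 4.3.3 on log2(TMM-scaled CPM + 0.1), for genes kept by filterByExpr of edgeR 4.0.16, with Benjamini-Hochberg adjustment over all genes and a threshold of 0.05. Subunit ratios were tested by exact permutation. Alternatives were DESeq2 1.42.0, edgeR and limma-voom on the recovered reads, other scalings, filters and pseudocounts, other sets of libraries, and a replicate block. Figures used Python 3.11.15 with matplotlib 3.10.9. In simulated data with 200 genes changed 4-fold, limma called 47.5% of them for lines against preB-ALL, 50.5% for IgM, 42% for tumours, 79.5% for lines against MEFs, 99.5% for both sgNT comparisons within the cassette MEFs, and at most 0.5% against WT.

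The members and lists were chosen with earlier results of these data known. Named are all 10 members, and from each pathway list at most 3 called genes per direction with the smallest adjusted p, of which 1 is not reported here. The other genes serve as markers or checks. MEF libraries of the same number come from the same cassette line per the labels. The deviations of same-numbered libraries correlated at 0.33 between sgNT and sgBcl-2, at -0.05 between no sgRNA and sgNT and at -0.13 between no sgRNA and sgBcl-2. No 2 libraries of a group agreed within sampling noise.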

Additional observations from a re-analysis of the deposited data

Results flagged for a closer look

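Within the 4 sg*Bcl-2* MEF libraries, library 2.2 stood apart from the other 3 for 4 of the 10 genes by Dixon's test. It held 138.01 CPM of *Rela* against 105 to 109 in the others, 43.3 CPM of *Relb* against 24.4 to 26.3, 97.9 CPM of *Nfkbia* against 50.6 to 58.5, and 57.9 CPM of *Tnfaip3* against 26.8 to 29.6. Line 15 stood apart for *Traf1*, at 0.600 CPM against 0 to 0.0498 CPM, both among the 4 IgM-positive lines and among all 6 lines. Line 16 was the highest of the 6 lines for *Rela*, at 87.1 CPM against 61.9 to 70.2 CPM. In all, 30 sets of libraries were tested and 7 were marked, where chance marks about 1 in 20 independent sets with a normal spread. The sets here were not independent, as the 4 IgM-positive lines are among the 6 lines and 4 marks fell on library 2.2. The number marked therefore cannot be compared with chance. *Nfkbie* moved in opposite directions in the 2 MEF lines with sg*Bcl-2* against sgNT, by -0.48 and -0.23 on the log2 scale in MEF line 1 and by 0.11 and 0.59 in MEF line 2, and this difference was not tested.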

How the results depend on the processing

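Numbers of genes called by limma depended on the settings in most comparisons. For lines against preB-ALL (6064 genes), the tumours in place of their lines gave 3676, and leaving out a library gave 3177 (without preB-ALL library 2) to 6060. For IgM (80 genes), DESeq2 gave 749, edgeR 24, limma-voom 1, a pseudocount of 1 gave 47, and leaving out a library 35 to 117. For tumours against lines (42 genes), DESeq2 gave 2100, no scaling factor 79, all 4 IgM-positive lines 1418, edgeR, limma-voom, scaling by RLE, testing genes of any level and leaving out any library gave 0, and the replicate block 3595 with the mouse numbers of the titles and 0 with those of the descriptions. For sg*Bcl-2* against sgNT (1592 genes), all 10 MEF libraries in the fit gave 64, libraries summed per line with the replicate block 2655, and leaving out a library 156 to 1638. For sgNT against no sgRNA (6025 genes), all 10 MEF libraries gave 902. Against WT (0 genes in both), no sgRNA gave 188 with DESeq2, 718 with all 10 MEF libraries and 0 to 8577 with a library left out, and sgNT gave 88, 67 and 0 to 8425.

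The sign of some member differences changed, all of them uncalled in both fits except *Traf1*. Without a scaling factor, these were *Rel* for lines against preB-ALL (-0.18), *Nfkb1* for IgM (-0.012), and *Nfkbia* (-0.037) and *Nfkbie* (-0.0029) for sg*Bcl-2*. For tumours, *Tnfaip3* turned to -0.040 with DESeq2 and -0.046 with edgeR, and with all 4 IgM-positive lines *Rela* turned to -0.016 and *Nfkbia* to 0.10. For no sgRNA against WT, *Traf1* turned to -0.34 with DESeq2 and -0.36 with edgeR. Leaving out a library gave ranges across 0. For IgM, they were -0.044 to 0.13 for *Nfkb1*, -0.15 to 0.021 for *Rela* and -0.94 to 0.23 for *Nfkbia*. For tumours, they were -0.11 to 0.39 for *Nfkb1*, -0.12 to 0.79 for *Nfkb2*, -0.075 to 0.13 for *Rela*, -0.65 to 0.97 for *Tnfaip3*, and, against all lines, -0.34 to 0.026 for the *Rel* to *Rela* ratio. For sg*Bcl-2*, they were -0.17 to 0.16 for *Nfkbia* and -0.076 to 0.25 for *Nfkbie*. For sgNT against no sgRNA, they were -0.057 to 0.40 for *Rel*, -0.12 to 0.011 for *Rela*, -0.12 to 0.29 for *Relb* and -0.12 to 0.44 for *Bcl3*. Against WT, they were -0.024 to 0.80 for *Nfkb1* and -1.17 to 2.36 for *Traf1* without an sgRNA, and -0.38 to 0.10 for *Nfkb2* and -1.26 to 0.061 for *Relb* with sgNT. *Traf1* was called at -1.17 (without WT library 1, adjusted p = 0.0328) and at 2.36 (without WT library 2). The causes were not tested.

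With the replicate block by MEF line, *Relb* in sg*Bcl-2* against sgNT was called (log2 difference 0.85, adjusted p = 0.0499). With the libraries summed per line and the block, *Rela* (0.24), *Relb* (0.87) and *Tnfaip3* (0.57) were added to the calls. The pairing of tumours by titles added *Relb* (1.11), *Bcl3* (2.51) and *Traf1* (4.03). No other member's call changed with a block. With the sg*Bcl-2* libraries averaged per MEF line, an alternative chosen after seeing the data, the differences of the lines to these MEFs in the *Rel* to *Rela* (2.45), *Nfkb2* to *Nfkb1* (-2.45) and *Relb* to *Rela* (-2.59) ratios no longer passed (exact p = 0.0714), as 6 against 2 values cannot. With the reads summed per MEF line without a block, *Relb* was added for sg*Bcl-2* against sgNT, and *Nfkb1* was lost for lines against these MEFs (limma adjusted p = 0.0667).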
